A study of Mus musculus with 4 samples.

Results

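The genes described here are the transcriptional co-activator genes Yap1 and Wwtr1, the DNA-binding partner genes Tead1, Tead2, Tead3 and Tead4, and the target genes Amotl2, Ankrd1, Cyr61 (now Ccn1) and Ctgf (now Ccn2). They were chosen by symbol, and all 10 were found among the 54232 genes of the deposited count table. Bulk RNA was sequenced from RPP631, a line of mouse lung cancer cells labelled as small cell lung cancer (SCLC) and grown in standard medium, after 48 h in DMSO, the vehicle, or after 48 h in 100 nM YKL. The series title calls the treatment a CDK7 inhibitor. CDK7 is the kinase of the transcription factor TFIIH and also activates cell-cycle kinases. Each group held 2 libraries of this single line, whose genotype and driver alleles the labels do not give. Whether the replicates came from separate cultures is not stated, and the p-values therefore speak only of how far these samples vary, which may be technical.

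YAP (gene Yap1) and its paralogue TAZ (gene Wwtr1) do not bind DNA themselves. They enter the nucleus and bind TEAD proteins at their DNA sites. The Hippo kinases LATS (Lats1, Lats2), activated by the kinases MST (Stk3, Stk4), can phosphorylate YAP and TAZ and hold them in the cytoplasm. In SCLC, YAP is known to be low or absent in most neuroendocrine tumours and to be present in a part of the non-neuroendocrine ones. Because this regulation acts largely on the protein, the RNA levels below describe how much transcript of each component was present, not how active the pathway was.

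TEAD proteins recognise the sequence CATTCC, read as GGAATG on the other strand. In the RefSeq promoter windows (GRCm38.p6, 250 bases before to 50 after each start), 7 of the 10 genes had an entry, in 10 windows. The motif, searched on both strands, was found in 8 of these windows, covering 6 of the 7 genes (Yap1, Wwtr1, Tead3, Amotl2, Ankrd1 and Ccn1), but not in that of Tead2. The windows of Wwtr1 overlap and hold the same site, so windows are not independent. Of all 32851 promoter windows of 300 bases, 14.7% held it. The windows of the target genes are shown because these genes hold the same motif near the start but had very different levels in these cells, with the motif in capitals on the strand of the gene.
Cyr61 (Ccn1), chr3:145649936-145650235, minus strand: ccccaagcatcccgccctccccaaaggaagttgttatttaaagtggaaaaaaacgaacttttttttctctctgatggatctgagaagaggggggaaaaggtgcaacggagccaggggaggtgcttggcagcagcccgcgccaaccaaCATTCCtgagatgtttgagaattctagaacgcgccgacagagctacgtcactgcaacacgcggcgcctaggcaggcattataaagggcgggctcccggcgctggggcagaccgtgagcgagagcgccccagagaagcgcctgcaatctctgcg
Amotl2, chr9:102717554-102717853, plus strand: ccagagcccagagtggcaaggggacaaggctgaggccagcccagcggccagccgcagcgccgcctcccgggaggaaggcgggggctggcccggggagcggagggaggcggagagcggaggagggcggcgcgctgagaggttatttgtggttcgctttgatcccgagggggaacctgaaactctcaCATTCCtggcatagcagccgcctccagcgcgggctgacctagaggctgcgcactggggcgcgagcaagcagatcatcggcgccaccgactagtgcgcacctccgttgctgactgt
Ankrd1, chr19:36119795-36120094, minus strand: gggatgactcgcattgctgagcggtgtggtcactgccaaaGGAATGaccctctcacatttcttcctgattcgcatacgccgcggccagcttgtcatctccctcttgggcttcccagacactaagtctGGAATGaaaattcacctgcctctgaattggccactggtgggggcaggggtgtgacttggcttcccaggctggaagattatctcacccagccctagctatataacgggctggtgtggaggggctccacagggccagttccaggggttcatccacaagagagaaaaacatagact
The motif begins 103 bases before the RefSeq start of Cyr61 and 65 bases before that of Amotl2. The Amotl2 window lies inside the span of the gene as counted here, which begins at 102716672. Ankrd1 holds it at 210 and at 123 bases before the start, and 1.36% of all windows hold at least 2 copies. A match of these letters is a description of the sequence and not evidence of binding.

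Totals of assigned counts ran from 29817387 to 34189709 per library. Levels are CPM (counts relative to the library total) scaled by TMM (edgeR's correction for library composition), and levels of different genes are compared per kilobase of exon. The DMSO libraries stood apart from each other. They lay at 37.2 and -51.8 on a second principal component that carried 30.7% of the variance, so values without each of them are given where they matter. As a check of the labelled cell type, the epithelial markers Epcam, Cdh1, Krt8 and Krt18 summed to 884 to 1080 CPM per kb in the 4 libraries, and 10 neuroendocrine markers summed to 1570 to 2020. The summed level of 5 tuft cell markers was at most 0.117 CPM per kb and that of 5 endothelial markers at most 0.717. The sum over 10 fibroblast markers was 2.15 and 3.37 CPM per kb in DMSO and 6.41 and 2.5 in YKL, and over 7 immune markers 2.34 and 3.8 in DMSO and 5.65 and 3.3 in YKL, with Cd3e at 0 counts. Of the immune markers edgeR called 1, Ptprc, which had 0 and 2 counts with vehicle and 25 and 23 with YKL (adjusted p = 0.0392). Over 7 non-neuroendocrine markers the DMSO libraries gave 13.6 and 39.2 and the YKL libraries 27.7 and 16.5. Anxa1 alone gave 6.95 and 31.2 of the DMSO sums. Among these markers edgeR called 1, against 3.54% of all genes tested. This was the Notch target Hes1, higher in YKL (log2 fold change 1.25) and just under the threshold (edgeR adjusted p = 0.05 after rounding). Of those not called, Cd44, Notch2 and Cav1 had log2 fold changes of 0.63, 0.37 and 1.2. Rest, Vim and Anxa1 had -0.95, -0.51 and -1.35. The part of these marker levels in the results below was not tested, and fewer cells of a type and less RNA per cell cannot be told apart in bulk RNA.

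RPP631 cells carried abundant Tead1 transcript, little Yap1 and almost no Wwtr1, Tead4, Ctgf or Ankrd1. After YKL the levels of most of these genes overlapped those in DMSO. Exceptions were Cyr61, which was higher in both YKL libraries, and Amotl2, which was lower in both, and neither passed the test across all genes. Such a separation of the groups, in 2 of the 6 genes tested, was met by 52.3% of all genes tested. Of the 10 genes, 6 had enough counts to be tested, and edgeR's quasi-likelihood test called 0 of them at a Benjamini-Hochberg adjusted p under 0.05, whereas 3.54% of the 16749 genes tested were called. At an unadjusted p under 0.05 there were 2 of 6, against 21.2% of all genes tested. DESeq2 also called 0 of the 6, with 11.0% of its genes called. Without DMSO replicate 1 edgeR called 1 of them (Tead3), and without DMSO replicate 2 it called 2 (Tead2 and Cyr61). The median log2 fold change of the 6 was 0.17, and that of all genes tested was -0.0001.

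**Figure D1:**
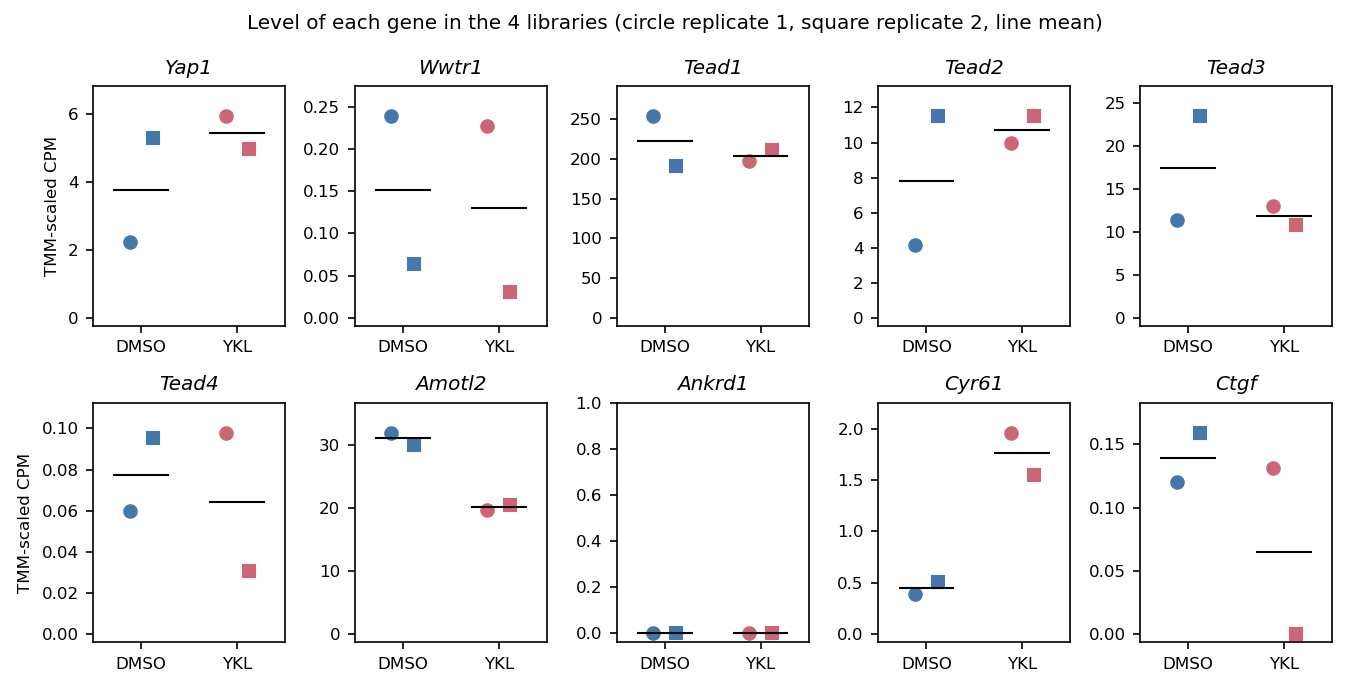
TMM-scaled CPM (vertical axes, each from 0 and with its own range) of the 10 genes in DMSO and YKL. Points are libraries (circles replicate 1, squares replicate 2) and lines are means. The groups lie apart for Amotl2 (lower in YKL) and Cyr61 (higher in YKL), and Ankrd1 is at 0 in every library.

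The co-activators were scarce at the RNA level. Yap1 (ENSMUSG00000053110, mm10 chromosome 9, 7931999 to 8004596) was read 75 times in DMSO replicate 1, 167 times in DMSO replicate 2, 182 times in YKL replicate 1 and 160 times in YKL replicate 2. These are 2.24 and 5.3 CPM in DMSO and 5.94 and 4.97 CPM in YKL. DMSO replicate 1 was the low library, and DMSO replicate 2 lay between the YKL libraries, so the groups overlapped. The mean was 3.77 ± 2.16 CPM in DMSO and 5.45 ± 0.688 CPM in YKL (SD, n = 2 in each group). The log2 fold change of Yap1 was 0.53 ± 0.47 (standard error), with a 95% interval of -0.53 to 1.59 (edgeR adjusted p = 0.574). Without DMSO replicate 1 it was 0.04 and without DMSO replicate 2 it was 1.24 (edgeR adjusted p = 0.0571), so its size rested on which DMSO library was used. Over the 11 alternative fits the adjusted p of Yap1 ran from 0.0571 to 0.966.

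Wwtr1 (chromosome 3, 57455649 to 57575910), which encodes TAZ, had 8 and 2 counts in the DMSO libraries, against 7 and 1 in the YKL libraries, or 0.239, 0.0635, 0.228 and 0.031 CPM. It fell below the filter on low counts and was tested only in the fit without that filter, which did not call it. At counts this low a difference could easily be missed. Per kilobase, Yap1 made up 82.9% and 97.7% of the summed Yap1 and Wwtr1 level in DMSO, and 93.1% and 98.8% in YKL. With a mean of 0.498 CPM per kb over the 4 libraries, Yap1 lay above 29.7% of the protein-coding genes that had any count.

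The TEAD genes encode the factors that bring YAP and TAZ to DNA. Tead1 (ENSMUSG00000055320, chromosome 7, 112679318 to 112906807) was at 254 and 191 CPM in DMSO and at 198 and 211 CPM in YKL. DMSO replicate 1 was the highest library and DMSO replicate 2 the lowest, with both YKL libraries between them. Its log2 fold change was -0.12 ± 0.20 (95% interval -0.56 to 0.32, edgeR adjusted p = 0.78), and its sign turned without DMSO replicate 1, to 0.10. The mean Tead1 level of 15.7 CPM per kb lay above 77.8% of the protein-coding genes with any count.

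Tead2 (chromosome 7, 45215753 to 45233644), the TEAD gene best known from early embryos and neural progenitors, was at 4.15 and 11.5 CPM in DMSO and at 9.99 and 11.5 CPM in YKL. Tead3 (chromosome 17, 28331671 to 28350805) was at 11.4 and 23.5 CPM in DMSO and at 13 and 10.8 CPM in YKL. For each of these genes 1 DMSO library stood away from the other 3 libraries: replicate 1 was low in Tead2 and replicate 2 was high in Tead3. The log2 fold change of Tead2 was 0.46 ± 0.46 (95% interval -0.59 to 1.51, edgeR adjusted p = 0.631). Without DMSO replicate 1 it was -0.09, and without DMSO replicate 2 it was 1.33 and passed the test (edgeR adjusted p = 0.0103). For Tead3 the log2 fold change was -0.55 ± 0.36 (95% interval -1.37 to 0.26, edgeR adjusted p = 0.423). It was 0.02 without DMSO replicate 2, and -0.98 without DMSO replicate 1, where it passed the test (edgeR adjusted p = 0.0397). Over the 11 alternative fits the adjusted p ran from 0.0103 to 0.91 for Tead2 and from 0.0397 to 0.977 for Tead3. Each of these calls compares the YKL pair with a single DMSO library, and 14.0% and 7.61% of all genes tested were called without DMSO replicate 2 and without DMSO replicate 1, respectively. Tead4 (chromosome 6, 128224288 to 128300823) had 2 and 3 counts in the vehicle and 3 and 1 with YKL. It was tested only without the filter on low counts, where it was not called.

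Per kilobase, Tead1 contributed 84.3% and 64.4% of the summed TEAD level in DMSO replicates 1 and 2, and 74.2% and 76.1% in YKL replicates 1 and 2. Tead3 contributed 11.7% and 24.5% in DMSO and 15% and 12.1% in YKL. Tead2 made up 3.9% and 11% with vehicle, against 10.6% and 11.8% with YKL. The shares in YKL lay between those of the DMSO libraries for Tead1 and Tead3. The summed TEAD level itself was 22.2 and 21.8 CPM per kb with vehicle and 19.6 and 20.4 with YKL. It exceeded the summed Yap1 and Wwtr1 level 76.1-fold and 37.3-fold in the DMSO libraries, and 28.5-fold and 37.6-fold in the YKL libraries.

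**Figure D2:**
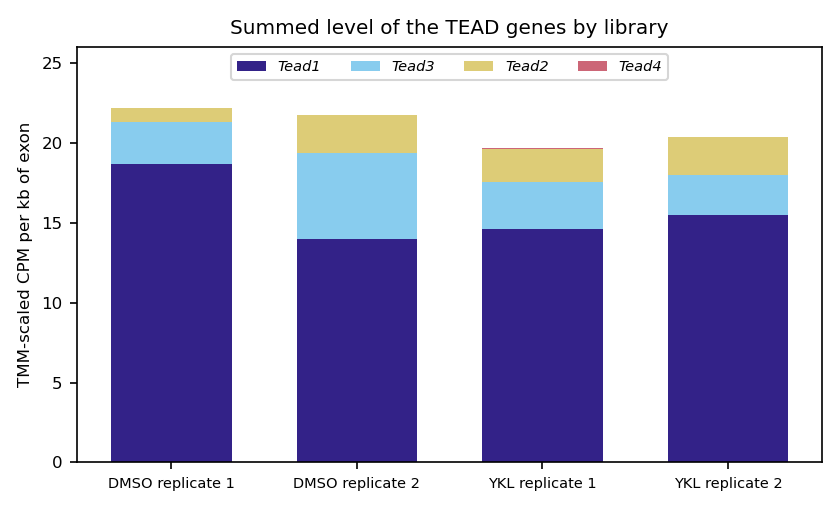
Stacked bars of TMM-scaled CPM per kb of exon for the 4 TEAD genes in each library. Tead1 is the largest part of every bar (64.4% to 84.3%), the DMSO libraries differ in their Tead2 and Tead3 parts, and the Tead4 part is too thin to read.

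Of the target genes, Amotl2 and Cyr61 were tested and neither was called. Amotl2 (ENSMUSG00000032531, chromosome 9, 102716672 to 102733418) encodes an angiomotin-family protein that binds YAP and is itself a YAP target. Its counts were 1072 and 948 in the DMSO libraries but 608 and 662 in the YKL libraries, or 32 and 30.1 CPM against 19.8 and 20.5 CPM. Both YKL libraries were below both DMSO libraries, an order found in 25.3% of all genes tested. The mean was 31.1 ± 1.39 CPM in DMSO and 20.2 ± 0.499 CPM in YKL (SD, n = 2 in each group), a level 1.54-fold higher in DMSO. The log2 fold change of Amotl2 was -0.62 ± 0.22 (95% interval -1.10 to -0.14, edgeR unadjusted p = 0.0169, adjusted p = 0.14). It ran from -0.70 to -0.57 when each library was left out in turn, and its adjusted p ran from 0.0598 to 0.514 over the 11 alternative fits.

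Cyr61 (ENSMUSG00000028195, chromosome 3, 145646976 to 145649981) encodes the secreted matricellular protein CCN1 and is among the most used readouts of YAP activity. Its counts were 13 and 16 in the DMSO libraries but 60 and 50 in the YKL libraries, or 0.389 and 0.508 CPM against 1.96 and 1.55 CPM. Both YKL libraries were above both DMSO libraries, an order found in 27.0% of all genes tested. The mean level was 3.89-fold higher in YKL, with a log2 fold change of 1.96 ± 0.54 (95% interval 0.75 to 3.18, edgeR unadjusted p = 0.00499, adjusted p = 0.0815). The gene passed the test without the filter on low counts (edgeR adjusted p = 0.036) and without DMSO replicate 2 (edgeR adjusted p = 0.0289), where 5.79% and 14.0% of all genes were called. In the 11 alternative fits its adjusted p ran from 0.0289 to 0.39. Even in YKL its mean of 0.869 CPM per kb remained below that of Amotl2, at 3.21.

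The authors' deposited table lists 6 of the 10 genes, the same ones that were tested here. In the authors' deposited table Amotl2 had a log2 fold change of -0.6 (adjusted p = 0.00184) and Cyr61 one of 1.2 (adjusted p = 0.0065). Both lie under an adjusted p of 0.05 there, as do 27.8% of the 15936 genes in the authors' deposited table. The adjusted p of Yap1, Tead1, Tead2 and Tead3 in the authors' deposited table was 0.203, 0.733, 0.0773 and 0.126.

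The other targets were at or near the floor. Ctgf (chromosome 10, 24595442 to 24598683), which encodes the matricellular protein CCN2, had 4 and 5 counts in the vehicle, against 4 and 0 with YKL. Ankrd1 (chromosome 19, 36111965 to 36119844), an ankyrin-repeat gene used as a YAP readout in many cell types, had 0 counts in all 4 libraries. A count of 0 allows a level of up to 3 counts, or 0.0877 to 0.1006 CPM before TMM scaling in these libraries, which covers counting error only. Neither gene passed the filter on low counts. Ctgf was tested only without that filter and was not called, and Ankrd1 could not be tested. At this depth a change in either could easily be missed.

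**Figure D3:**
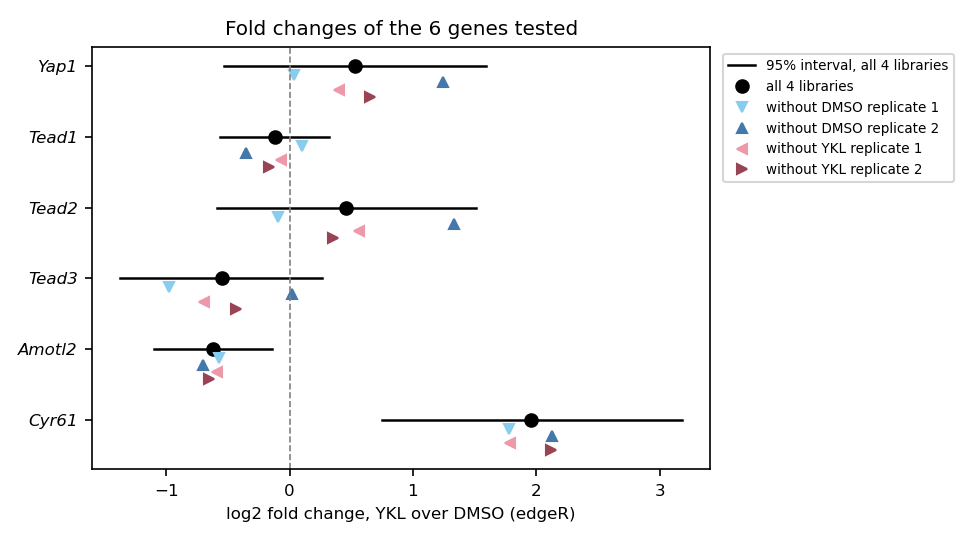
Log2 fold changes of YKL over DMSO (horizontal axis) for the 6 genes tested. Black points with lines are edgeR estimates and 95% intervals from all 4 libraries, and triangles leave out 1 library each. The intervals of Amotl2 and Cyr61 do not reach 0, while Tead1, Tead2 and Tead3 change sign without 1 of the DMSO libraries.

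Ordered by mean level per kilobase over the 4 libraries, the genes ran from Tead1 (15.7 CPM per kb) through Amotl2 (4.08), Tead3 (3.34), Tead2 (1.94), Cyr61 (0.546) and Yap1 (0.498) to Ctgf (0.0357), Wwtr1 (0.0294), Tead4 (0.0197) and Ankrd1 (0). Neighbours whose ranges over all 4 libraries overlapped were Amotl2 and Tead3, Tead2 and Cyr61, Cyr61 and Yap1, Ctgf and Wwtr1, and Wwtr1 and Tead4. Within each library, however, Tead2 was above Cyr61. Yap1 was above Cyr61 in both DMSO libraries (0.242 against 0.192 and 0.572 against 0.251 CPM per kb) and below it in both YKL libraries (0.642 against 0.97 and 0.537 against 0.769). Tead1 lay clear of Amotl2, Tead3 clear of Tead2, and Yap1 clear of Ctgf at 13.9-fold its level. Exons of Yap1, Tead2 and Ctgf share 116, 13 and 665 bases with the opposite-strand genes Gm20416, Cd37 and Gm15270, which had 0, 13 and 0 counts over all 4 libraries. Among 2377 protein-coding genes within 2-fold of the mean CPM of Tead1, those with the most similar pattern were Ubb, Naa15 and Eif4a3. Their Euclidean distances to Tead1 were 0.034, 0.042 and 0.044, computed on deviations of log2 CPM from the gene mean over 4 libraries.

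The Hippo kinase module restrains YAP and TAZ. All 19 genes found of this list were tested, and 0 were called by edgeR, by DESeq2 likewise 0 (3.54% and 11.0% of all genes), with 1 at an unadjusted p under 0.05 (21.2% of all genes). Log2 fold changes ran from -0.64 to 1.0 with a median of 0.00. The most abundant members per kilobase were the kinase genes Map4k4 (356 ± 25.3 CPM in DMSO and 322 ± 3.53 in YKL) and Taok2 (211 ± 46.7 and 198 ± 15.3), the LATS co-activator gene Mob1a (112 ± 27.4 and 95.9 ± 3.94), and Stk4 (122 ± 6.95 and 130 ± 6.67). The member with the unadjusted p under 0.05, named after its value was seen, was Lats1, whose kinase phosphorylates YAP. Lats1 was at 175 and 132 CPM in DMSO and at 87.7 and 110 CPM in YKL (log2 fold change -0.64 ± 0.21, edgeR adjusted p = 0.123). Without DMSO replicate 2, where 14.0% of all genes were called, edgeR called 3 of the 19, Lats1 lower and Map4k1 and Map4k2 higher. Its paralogue Lats2, which is also a YAP target, was at 0.538 and 0.984 CPM in DMSO and at 0.979 and 1.12 CPM in YKL.

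Of 35 genes found for upstream regulators, adaptors and TEAD cofactors, 31 were tested and 0 were called by edgeR or by DESeq2 (3.54% and 11.0% of all genes). At an unadjusted p under 0.05 there were 2, against 21.2% of all genes, and the median log2 fold change was -0.05. Among the most abundant were the casein kinase gene Csnk1d (335 ± 34.6 CPM in DMSO and 290 ± 26 in YKL), the ubiquitin ligase adaptor gene Fbxw11 (261 ± 34.5 and 210 ± 13) and Nf2 (290 ± 17.7 and 295 ± 7.36), which encodes the upstream Hippo regulator merlin. The 2 with an unadjusted p under 0.05, named after their values were seen, were the atypical cadherin gene Fat4 and the phosphatase gene Ptpn14, at log2 fold changes of -1.26 and 1.21 (edgeR adjusted p = 0.149 and 0.197). Without DMSO replicate 2, with 14.0% of all genes called, edgeR called 2 of the 31, Fat4 lower and Wtip higher. Vgll4, whose product competes with YAP for TEAD, was at 68.7 and 66.3 CPM in DMSO and at 85.1 and 67.3 CPM in YKL, and its paralogue Vgll1 had at most 1 count in any library.

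A further list held 18 commonly used YAP and TAZ target genes, of which Lats2, Fjx1 and Ptpn14 also stand in the lists above. Of these 17 were tested and edgeR called 0, while DESeq2 called 3 (3.54% and 11.0% of all genes). At an unadjusted p under 0.05 there were 8 of the 17, against 21.2% of all genes, with log2 fold changes on both sides of 0, and the median over the list was -0.12. The most abundant per kilobase were Nt5e, Arhgef17, Gadd45a and Asap1. The ectonucleotidase gene Nt5e was at 270 and 206 CPM in DMSO and at 161 and 129 CPM in YKL (log2 fold change -0.71 ± 0.21, edgeR adjusted p = 0.0901). The stress-response gene Gadd45a was at 14 and 14.7 CPM in DMSO and at 24.8 and 19.4 CPM in YKL (edgeR adjusted p = 0.2). For Arhgef17 and the Arf regulator gene Asap1 the log2 fold changes were 0.24 ± 0.23 and 0.04 ± 0.21.

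The widest differences in the target list, named after their values were seen, pointed in opposite directions. Igfbp3, which encodes a secreted binding protein for insulin-like growth factors, was at 2 and 6.95 CPM in DMSO and at 21.1 and 20.1 CPM in YKL (log2 fold change 2.20 ± 0.56, edgeR adjusted p = 0.0897). Tgfb2, which encodes a TGF-beta ligand, was at 12 and 2.32 CPM in DMSO and at 2.19 and 0.931 CPM in YKL (log2 fold change -2.20 ± 0.85, edgeR adjusted p = 0.215). DMSO replicate 1 was thus the low library for Igfbp3 and the high library for Tgfb2. Both were called by DESeq2, as was Nt5e. Without DMSO replicate 1 edgeR called 1 member, Igfbp3, and without DMSO replicate 2 it called 6, with Igfbp3 higher and Crim1, Nt5e, Nuak2, Rbms3 and Tgfb2 lower. Of all genes, 7.61% and 14.0% were called in these fits. Axl, a receptor tyrosine kinase gene, had at most 16 counts in any library.

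**Figure D4:**
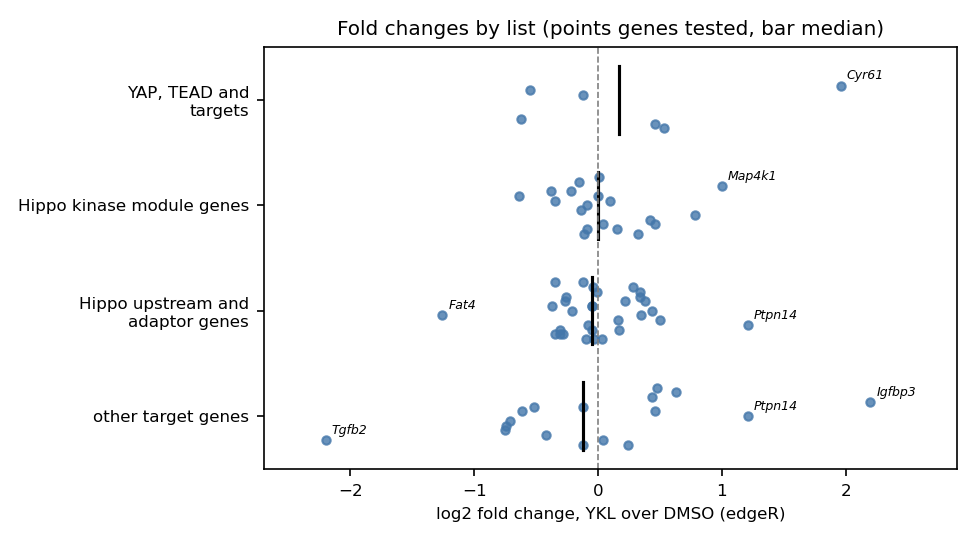
Log2 fold changes of YKL over DMSO (edgeR, horizontal axis) for every gene tested in each list, with the vertical spread only to separate points and bars at the medians (0.17, 0.00, -0.05 and -0.12 from top to bottom). Genes at or beyond 1 on either side are named, and none of the points passed an adjusted p of 0.05.

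In the promoter windows of these lists, CATTCC or GGAATG was found in 3 of 18 windows of the kinase module, 10 of 35 windows of the upstream and adaptor genes, and 4 of 14 windows of the other targets, or 16.7%, 28.6% and 28.6%, against 14.7% of all windows. The windows cover 16 of 20, 27 of 36 and 12 of 18 listed genes. Those of the other targets with the motif belong to Axl, Crim1, Lats2 and Ptpn14. Lats2 is also counted in the kinase module and Ptpn14 among the upstream and adaptor genes, so the shares are not independent.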

How the data were processed

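Per the submitters' processing notes, STAR 2.5.2b, the mm10 build, featureCounts and DESeq2 were used. The annotation release and strand setting are not given in the sources used here. The deposited table holds raw counts and exon lengths. The authors' deposited table of their comparison (mean normalized signal, log2 fold change and error, Wald score, raw and adjusted p-values) was only quoted. From the counts, genes were filtered with filterByExpr (minimum count 10, minimum total 15), scaled by TMM and tested with edgeR 4.0.16 (quasi-likelihood, robust prior, R 4.3.3). The fit had 2 residual degrees of freedom and a common biological coefficient of variation of 25%. Standard errors are the absolute log2 fold change over the square root of F, and intervals use the moderated degrees of freedom. Calls are at a Benjamini-Hochberg adjusted p under 0.05 over all genes tested. The procedure was run on simulated counts drawn with the same dispersion for every gene. These do not mimic the difference between the DMSO libraries. Alternatives were other scalings, no filter, a replicate block, no robust prior, DESeq2 1.42.0 and each library left out.

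The replicates differed by more than sampling noise (chi-square over degrees of freedom 86.6 in DMSO, 37.1 in YKL). All members were named. From each list, the called genes and the 4 most abundant per kilobase were to be named, and some of these are not reported here. The members and lists were chosen with earlier results of these data known. Map4k6 and Pals1 were not matched by symbol.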

Additional observations from a re-analysis of the deposited data

How the results depend on the processing

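With 2 libraries per group, single libraries set most values. Of the 10 genes, 0 were called with all libraries and 0 to 2 when each library was left out, and 1 (Cyr61) was called without the filter. Over all genes, 593 were called, and 71 to 2453 when each library was left out. The count was 169 with total count scaling, 331 with upper quartile scaling, 1740 without the filter, 1387 with the replicate block, 236 without the robust prior and 1588 by DESeq2. Kinase module calls were 0 to 3 with each library left out and 2 without the filter (Lats1 and Map4k2). Upstream and adaptor calls were 0 to 2 with each library left out and 1 without the filter (Ptpn14). Other target calls were 0 to 6 with each library left out, 5 without the filter, 3 with the replicate block and 3 by DESeq2. Of all genes, 5.79% were called without the filter and 11.0% by DESeq2. With the replicate block, 1387 of the 16749 genes tested were called. The cause of these changes between fits was not tested. The log2 fold changes that reversed were those of Tead1 (0.10) and Tead2 (-0.09) without DMSO replicate 1 and of Tead3 (0.02) without DMSO replicate 2. Over each library left out, Tead1 ran from -0.35 to 0.10, Tead2 from -0.09 to 1.33 and Tead3 from -0.98 to 0.02. In the 7 other alternatives no tested member changed sign, and Cyr61 alone changed its call, once. The labels share replicate numbers but do not say what a number marks. The differences between replicates 1 and 2 correlated across genes at r = 0.15 between the groups, and the block called 0 of the 10 genes. The filter on low counts removed Wwtr1, Tead4, Ctgf and Ankrd1. The fit without it took in Wwtr1, Tead4 and Ctgf and called none of them, while Ankrd1 had no count to test.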
